A study of Homo sapiens with 10 samples.

Results

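The 9 genes described here are the inhibitors of the cyclin-dependent kinases, the retinoblastoma gene RB1 and the lamin gene LMNB1. They were chosen by name, as the rows of the deposited read count table whose symbol is CDKN1A, CDKN1B, CDKN1C, CDKN2A, CDKN2B, CDKN2C, CDKN2D, RB1 or LMNB1, and each name has 1 of the 22626 rows. The RNA came from ARPE-19, an established human cell line derived from the retinal pigment epithelium (RPE), and was sequenced after 48 h in 1 of 2 media. The control group (MG, n = 5) received 5.5 mM glucose with 32 mM mannitol, a sugar alcohol that raises the osmolarity without serving as fuel, and the high glucose group (HG, n = 5) received 37.5 mM glucose without added mannitol. All libraries come from the same line in serum-containing medium, no gene was altered in either group, and the comparison asks which transcripts differ when glucose replaces mannitol as a model of RPE senescence in diabetes. The labels do not say whether the 5 samples of a group were separate cultures, so the p-values measure only the spread between these samples.

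Cells pass from G1 into S phase when cyclin D with CDK4 or CDK6, and then cyclin E with CDK2, phosphorylate the retinoblastoma protein and free the E2F factors that switch on the genes of DNA replication. The CIP/KIP inhibitors p21, p27 and p57 (CDKN1A, CDKN1B and CDKN1C) bind cyclin and kinase together and mainly restrain CDK2, whereas the INK4 inhibitors p16, p15, p18 and p19 (CDKN2A, CDKN2B, CDKN2C and CDKN2D) bind CDK4 and CDK6. In senescence, a lasting exit from the cell cycle, p21 and p16 are the inhibitors most often measured, RB1 encodes the protein they keep active, and loss of lamin B1, the product of LMNB1, is a widely used marker. The RPE of the adult eye does not normally divide, whereas ARPE-19 cells divide in culture.

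Total counts were between 33039260 and 45864176 in the MG libraries and between 32448991 and 44400714 in the HG libraries. HG libraries are named by the deposited column, which the labels tie to the group and to no single sample. Levels are given as CPM, counts scaled to the TMM-normalised size of the library, fold changes and adjusted p-values are those of edgeR's quasi-likelihood test over 14936 rows, and a gene is called changed when its adjusted p is under 0.05. Each of the 20 pairs of libraries within a group differed beyond counting noise, with a chi-square of 13.8 to 78.5 per gene. HG_1 and MG_2 stand apart from the other 8 libraries: their levels rise by 0.188 and 0.170 log2 units for each 10 points of GC content, while the slopes of the others run from -0.0916 to -0.00519.

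In the longest coding transcripts of the 9 genes no window of 100 bases is shared with another gene. How reads with more than 1 position were counted is not given in the sources used here.

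Promoters of RefSeq (build GRCh38.p14) are shown, as the 250 bases before the start, for the genes that changed, CDKN1A and CDKN2B, and for the 2 starts of CDKN2A, whose transcripts encode p16 from the inner start and the unrelated protein p14ARF from the outer one. Both kinds of transcript are counted in a single row, so a CDKN2A value here is not a value of p16 alone. Capitals mark the GC box GGGCGG on either strand, the letters that the Sp factors bind.
CDKN1A, chr6:36678464-36678713, plus strand: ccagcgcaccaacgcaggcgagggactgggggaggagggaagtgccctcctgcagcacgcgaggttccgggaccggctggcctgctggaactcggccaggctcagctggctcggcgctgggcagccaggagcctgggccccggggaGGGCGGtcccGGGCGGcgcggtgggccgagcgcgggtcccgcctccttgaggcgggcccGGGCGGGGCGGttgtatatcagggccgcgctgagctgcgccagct
CDKN2B, chr9:22009306-22009555, minus strand: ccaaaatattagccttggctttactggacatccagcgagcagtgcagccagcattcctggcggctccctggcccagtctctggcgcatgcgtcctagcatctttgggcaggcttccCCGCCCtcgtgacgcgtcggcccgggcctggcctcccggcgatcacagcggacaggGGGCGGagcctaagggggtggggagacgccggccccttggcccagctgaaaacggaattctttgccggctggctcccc
CDKN2A outer start, chr9:21995325-21995574, minus strand: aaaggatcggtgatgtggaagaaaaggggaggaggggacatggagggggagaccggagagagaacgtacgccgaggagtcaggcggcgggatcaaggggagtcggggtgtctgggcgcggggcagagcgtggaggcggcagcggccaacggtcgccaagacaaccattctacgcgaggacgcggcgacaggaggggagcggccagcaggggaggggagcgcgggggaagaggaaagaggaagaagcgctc
CDKN2A inner start, chr9:21974858-21975107, minus strand: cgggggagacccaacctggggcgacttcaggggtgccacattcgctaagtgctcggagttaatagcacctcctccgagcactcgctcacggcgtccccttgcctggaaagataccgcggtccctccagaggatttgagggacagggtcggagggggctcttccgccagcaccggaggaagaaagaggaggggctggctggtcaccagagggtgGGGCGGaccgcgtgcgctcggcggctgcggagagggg
The CDKN1A stretch holds 4 GC boxes, of which the last 2 overlap, the CDKN2B stretch holds 2 and the outer CDKN2A start holds 0. For the inner start 1 box is shown, and a second lies just after the start. At least 1 GC box is present in 45.0% of the 35116 RefSeq promoter windows of 300 bases (250 before and 50 after the start). The TATA box TATAAA (11.5% of all windows), the E2F letters TTTGGCGC, TTTCCCGC, TTTCGCGC or TTTGCCGC (3.31%) and the CHR letters TTTGAA or TTCGAA (16.4%) were searched on both strands as well, and none is in the windows of these 3 genes.

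Per transcript length, CDKN1A was by far the most abundant of the 9 genes. Its mean over the 10 libraries was 266 FPKM (fragments per kilobase of transcript, scaled to library size, as deposited), with a range from 203 to 341, and it held 70.1% of the summed FPKM of the 9 genes. CDKN1B followed with a mean of 25.1 FPKM, then CDKN2B with 21.9, RB1 with 19.3 and LMNB1 with 17.0. In these 4 the range of each overlaps that of the next, although that of CDKN1B lies wholly above that of LMNB1. A lower tier held CDKN2C with a mean of 10.2 FPKM, CDKN2A with 9.58 and CDKN2D with 7.56, again with overlapping neighbours. CDKN1C was last with a mean of 0.0267 FPKM. Neighbours in this order did not overlap at only 3 steps, from CDKN1A to CDKN1B, from LMNB1 to CDKN2C and from CDKN2D to CDKN1C.

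**Figure D1:**
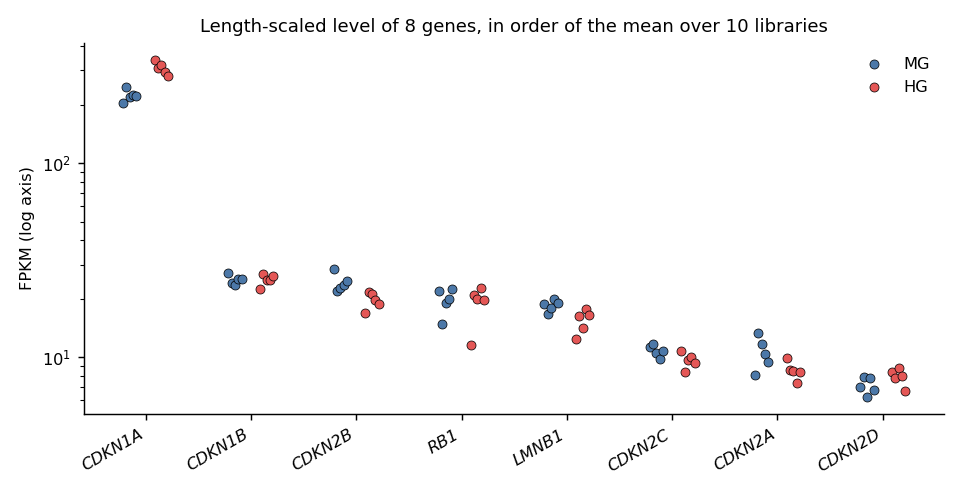
FPKM of 8 of the genes in each library (log axis; blue, 5 MG libraries; red, 5 HG libraries), ordered by the mean over 10 libraries, with CDKN1C (mean 0.0267 FPKM) left out. CDKN1A stands apart from the other 7, and its HG libraries all lie above its MG libraries.

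The share of CDKN1A in the summed FPKM was 65.7% ± 2.41 in MG (SD, n = 5, range 62.3% to 69.0%) and 74.5% ± 2.50 in HG (range 72.6% to 78.7%), so the shares do not overlap. The summed FPKM of the 4 INK4 genes was 52.8 ± 1.83 in MG (range 51.2 to 54.8) and 45.8 ± 1.83 in HG (range 43.2 to 48.1), also without overlap. These sums were put together with the genes' changes known and are descriptions. Of the 4 INK4 genes only CDKN2B was called, with a mean of 24.3 FPKM in MG and 19.6 in HG. The mean of CDKN2A went from 10.6 to 8.56 and that of CDKN2C from 10.8 to 9.65, whereas that of CDKN2D went from 7.15 to 7.97. In RNA from whole cultures, fewer cells with a transcript and less of it per cell cannot be told apart.

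Among the CIP/KIP genes, CDKN1A rose in high glucose and CDKN1B stayed within its spread. CDKN1A (ENSG00000124762, chr6:36676460-36687339, plus strand), whose product p21 binds CDK2 with its cyclin, was measured at 474, 578, 503, 509 and 503 CPM in MG_1 to MG_5. In HG_1 to HG_5 it was at 807, 693, 725, 665 and 635 CPM. Every HG library lies above every MG library, and in each group the highest value is that of the library with the GC slope (HG_1, MG_2). The means were 513.2 ± 38.7 CPM in MG and 705.2 ± 66.0 CPM in HG (SD, n = 5 each), a log2 fold change of 0.46 (SE 0.0723) or 1.37-fold (95% interval 1.23 to 1.53, edgeR adjusted p = 0.00183). The exact two-sided permutation test, with 252 ways to split the 10 libraries, gave p = 0.00794, the smallest it can give. Without HG_1 and MG_2 the log2 fold change was 0.45 (adjusted p = 0.000221). The noncoding gene DINOL (chr6:36677609-36678559) lies within the span of CDKN1A on the opposite strand and was not analysed here. If the counting did not use strand, reads from bases the 2 genes share could not be separated.

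CDKN1B (ENSG00000111276, chr12:12715058-12722371, plus strand), whose product p27 is set largely by protein breakdown, was between 67.6 and 79.0 CPM in MG (median 71.1) and between 64.6 and 74.2 CPM in HG (median 71.0). The groups overlap, with HG_1 below the lowest MG library and MG_1 above the highest HG library. The log2 fold change was -0.03 (SE 0.0565), with a 95% interval of the fold from 0.901 to 1.07 and an adjusted p of 0.827, so a change of the size seen for CDKN1A lies outside the interval.

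CDKN1C (ENSG00000129757, chr11:2883213-2885773, minus strand), an imprinted gene that encodes p57, was barely detected. It had 3, 3, 1, 4 and 6 counts in MG_1 to MG_5 and 5, 1, 0, 2 and 0 counts in HG_1 to HG_5. The filter on low counts removed it, and it was not tested. A count of 0 in HG_3 and HG_5 allows a level of up to 0.0669 and 0.0912 CPM there, which is 3 counts and covers counting error only, and a difference was not detectable at this depth. Kept in a fit without the filter, over 18514 rows, it had an adjusted p of 0.566.

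Among the INK4 genes CDKN2B fell, the values of CDKN2A and CDKN2C were lower in HG without passing the test, and those of CDKN2D were higher without passing it. Whether the changes of these genes differ from each other was not tested. CDKN2B (ENSG00000147883, chr9:22002903-22009363, minus strand), whose product p15 is best known as a target of TGF-beta signalling, was at 117, 93.2, 93.9, 97.1 and 97.2 CPM in MG_1 to MG_5. In HG_1 to HG_5 it was at 72.5, 88.0, 86.5, 79.6 and 76.8 CPM. All HG libraries lie below all MG libraries, and MG_1 lies far above the other MG libraries. The means were 99.8 ± 9.98 and 80.7 ± 6.54 CPM, which is a log2 fold change of -0.31 (SE 0.0772) or 0.809-fold (95% interval 0.719 to 0.910, adjusted p = 0.0221, exact permutation p = 0.00794). The call was lost without HG_4 (adjusted p = 0.0517) or without HG_5 (adjusted p = 0.0561). Without MG_1 the log2 fold change was -0.24 (adjusted p = 0.0360), and without HG_1 and MG_2 it was -0.29 (adjusted p = 0.0214).

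CDKN2A (ENSG00000147889, chr9:21967753-21995301, minus strand), the row that holds the transcripts of p16 and p14ARF, was at 8.52, 13.7, 11.7, 10.5 and 9.57 CPM in MG_1 to MG_5. In HG_1 to HG_5 it was at 10.4, 8.65, 8.51, 7.33 and 8.48 CPM. The groups overlap: 3 HG libraries lie below the lowest MG library, none lies above the MG median, and MG_2 and HG_1 are the highest of their groups. The log2 fold change was -0.32 (SE 0.137, 95% interval -0.62 to -0.02) with an adjusted p of 0.154 and an exact permutation p of 0.0635. It passed when 1 surrogate variable was fitted (log2 fold change -0.38, adjusted p = 0.00742) and when each library's trend with GC content and transcript length was removed (log2 fold change -0.33, adjusted p = 0.0135), but not without HG_1 and MG_2 (adjusted p = 0.0869). Each of these fits gave a lower value in HG. On the opposite strand AL359922.1 spans CDKN2A and CDKN2B, and CDKN2B-AS1 (chr9:21994778-22121097) spans CDKN2B and overlaps only the outer end of CDKN2A. Neither was analysed here, and their reads could not be separated from those of CDKN2A and CDKN2B if the counting did not use strand, which is not given in the sources used here.

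CDKN2C (ENSG00000123080, chr1:50960745-50974633, plus strand), which encodes p18, was at 24.4, 27.0, 23.0, 21.8 and 23.9 CPM in MG_1 to MG_5 and at 24.4, 18.3, 21.4, 21.8 and 20.2 CPM in HG_1 to HG_5. All HG libraries but HG_1 lie below the lowest MG library, HG_4 by very little. The log2 fold change was -0.18 (SE 0.0847, adjusted p = 0.197), and it passed with the GC and length trend removed (adjusted p = 0.0468) and with 1 surrogate variable (adjusted p = 0.0160). CDKN2D (ENSG00000129355, chr19:10566462-10569059, minus strand), which encodes p19, was between 8.90 and 11.8 CPM in MG (median 10.0) and between 10.0 and 13.4 CPM in HG (median 12.2). With a log2 fold change of 0.18 (SE 0.109, adjusted p = 0.310), it lay above 0 in every alternative and passed in none.

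RB1 (ENSG00000139687, chr13:48303726-48599436, plus strand) did not pass the test, and its SE was the largest of the 8 tested genes. It was at 110, 78.8, 97.7, 103 and 109 CPM in MG_1 to MG_5 and at 61.6, 105, 98.2, 116 and 100 CPM in HG_1 to HG_5. MG_2 and HG_1 are the lowest libraries of their groups, and the other 8 lie between 97.7 and 116 CPM. The log2 fold change was -0.05 (SE 0.153, adjusted p = 0.869), with a 95% interval of the fold from 0.763 to 1.22. Without HG_1 and MG_2 its SE was 0.0601 and the log2 fold change -0.0019 (adjusted p = 0.986). RCBTB2, which lies within the span of RB1 on the opposite strand, was at 10.5 ± 1.47 CPM in MG and 12.8 ± 1.71 CPM in HG. It did not pass (log2 fold change 0.28, adjusted p = 0.153), and its groups overlapped.

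LMNB1 (ENSG00000113368, chr5:126776623-126837020, plus strand), which encodes lamin B1 of the inner nuclear membrane's filament layer, was lower in HG and just missed the threshold. It was at 58.9, 53.4, 55.6, 61.8 and 59.4 CPM in MG_1 to MG_5. In HG_1 to HG_5 it was at 40.1, 49.8, 44.0, 54.6 and 51.2 CPM. Only HG_4 reaches into the MG range, and there it exceeds MG_2 alone. The means were 57.8 ± 3.28 and 47.9 ± 5.81 CPM, a log2 fold change of -0.27 (SE 0.0832) or 0.829-fold (95% interval 0.730 to 0.941, adjusted p = 0.0505, exact permutation p = 0.0159). Without HG_1 and MG_2 the groups did not overlap and the gene passed (log2 fold change -0.24, adjusted p = 0.0242). DESeq2, in place of edgeR's quasi-likelihood test, also called it (adjusted p = 0.0149), whereas library size scaling alone did not (adjusted p = 0.0927). LMNB1 was called in 6 of the 12 alternatives other than leaving out 1 library. Of the 10 fits that left out 1 library, 2 called it (edgeR adjusted p between 0.0310 and 0.124).

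**Figure D2:**
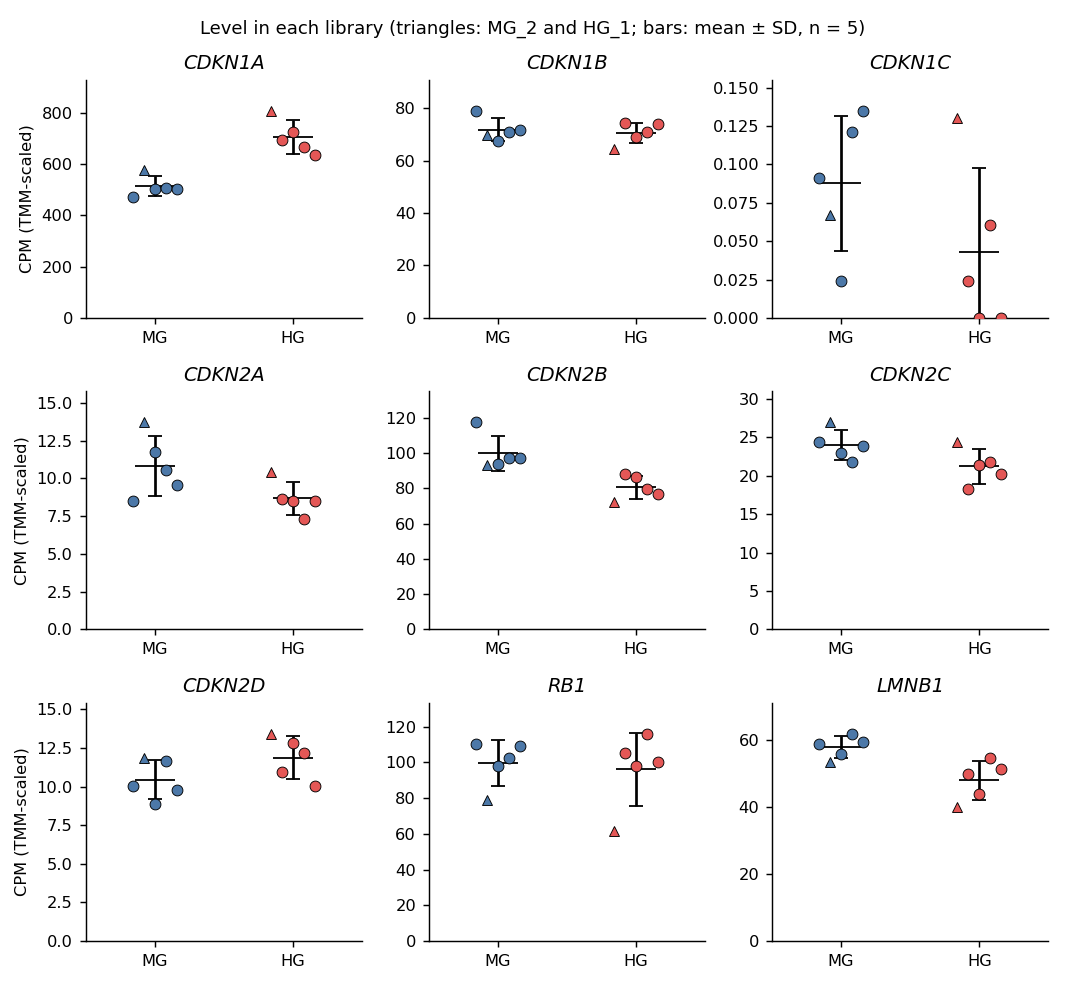
CPM of each gene (each panel's axis starts at 0) in the 5 MG and 5 HG libraries, with triangles for MG_2 and HG_1 and bars for the mean ± SD; for CDKN1C in HG the lower end of the SD lies below 0 and is not drawn. The groups are separate for CDKN1A, where HG is higher, and for CDKN2B, where HG is lower, and overlap for the other genes.

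Of the 8 genes tested, 2 were called, CDKN1A higher and CDKN2B lower. Over all 14936 rows 15.4% were called (7.62% higher and 7.8% lower), so 2 of 8 is not far from the background. The same 2 genes are those whose groups did not overlap, against 13.6% of all rows (6.74% higher and 6.91% lower). Among the 8 libraries left without HG_1 and MG_2, the groups of CDKN1A, CDKN2B, CDKN2C and LMNB1 did not overlap, as was the case for 30.7% of the rows. The median log2 fold change of the 8 genes was -0.12, beside 0.00132 over all rows. Without HG_1 and MG_2 3 genes were called, with LMNB1 added, and 27.1% of the rows. With 1 surrogate variable 5 were called, as were 33% of the rows, and with the GC and length trend removed 5 were called, as were 29.5% of the rows; CDKN2A, CDKN2C and LMNB1 were added in each. CDKN1A kept its call in all 10 fits that each left out 1 library and in all 12 other alternatives, with log2 fold changes between 0.41 and 0.51.

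**Figure D3:**
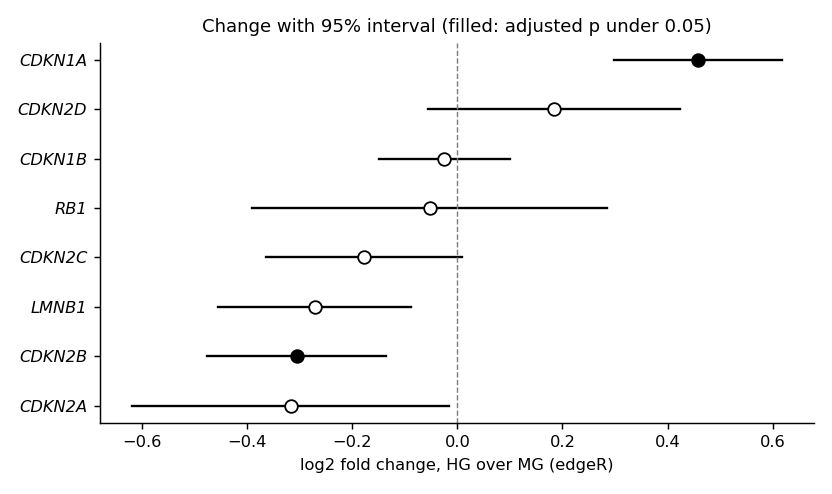
Log2 fold change of HG over MG with its 95% interval from edgeR for the 8 tested genes, ordered by size; filled points have an adjusted p under 0.05. CDKN1A and CDKN2B are filled, LMNB1 and CDKN2A have intervals that leave out 0 without passing the adjusted threshold, and RB1 has the longest interval.

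In HG_1 and MG_2 the 4 genes of lower GC content were low and the 4 of higher GC content were high for their group. RB1, with 37.3% GC in its longest coding transcript, was lowest in both, by -0.77 log2 units in HG_1 against the mean of the other 4 HG libraries and by -0.42 in MG_2 against the other 4 MG libraries. CDKN2B (44.6% GC) and LMNB1 (47.7%) were lower as well, by -0.19 and -0.32 in HG_1 and by -0.12 and -0.14 in MG_2. The GC-rich genes were higher: CDKN1A (58.1%) by 0.25 and 0.22, and CDKN2A (61.4%) by 0.34 and 0.44. Each group holds 1 such library. With the GC and length trends taken out together, CDKN1A was between 501 and 521 CPM in MG and between 671 and 732 CPM in HG. LMNB1 was then between 54.3 and 61.6 CPM in MG and between 40.1 and 53.7 in HG, so its groups were only narrowly separate. The share of all rows with separate groups after this step is not given here. The fit with this step called 29.5% of all rows, beside 15.4% without it.

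**Figure D4:**
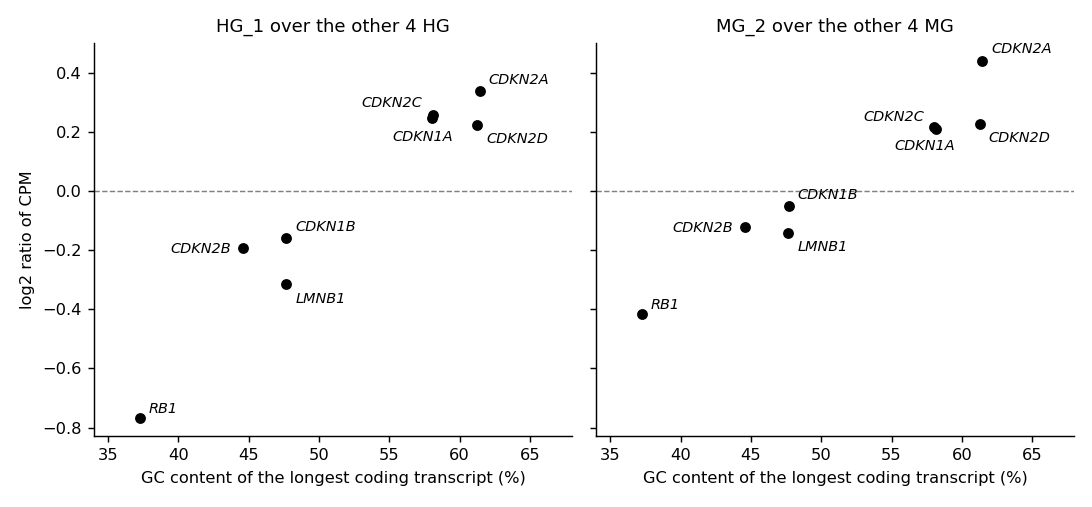
Log2 ratio of CPM in HG_1 over the mean of the other 4 HG libraries (left) and in MG_2 over the mean of the other 4 MG libraries (right) for the 8 tested genes, against the GC content of the longest coding transcript. In both panels RB1 is lowest (-0.77 and -0.42) and the 4 GC-richest genes lie above 0.

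Around these genes, 100 others were listed by role, 99 were tested and 25 were called, 4 higher and 21 lower, which is 25.3% beside 15.4% of all rows. Their median log2 fold change was -0.06. Without HG_1 and MG_2, 43 were called, 15 higher and 28 lower, in a fit that called 27.1% of all rows. Of the 11 tested G1 cyclins, kinases and activators, 1 rose and 5 fell (54.5% called), with a median of -0.20. CDK6, a partner of the D cyclins and a target of the INK4 proteins, went from 161.9 ± 24.5 to 96.7 ± 13.6 CPM (log2 fold change -0.74, adjusted p = 0.00257). CDK2, the kinase bound by p21 and p27, went from 41.8 ± 1.36 to 35.2 ± 2.18 CPM (-0.25, adjusted p = 0.0101), and CDC25A, the phosphatase that activates it, from 17.9 ± 1.03 to 14.1 ± 0.796 CPM (-0.35, adjusted p = 0.00537). The cyclins CCND3 (-0.40, adjusted p = 0.0139) and CCNE2 (-0.79, adjusted p = 0.0144) also fell. CCNH, the cyclin of the kinase that activates the other kinases, was the 1 that rose, from 56.6 ± 2.86 to 76.8 ± 3.73 CPM (0.44, adjusted p = 0.000373).

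Of 12 genes for pocket proteins, the relatives of RB1, and E2F factors, 1 rose and 3 fell (33.3% called beside 15.4% of all rows, median -0.12). Between 2 and 6 were called in the 12 alternatives other than leaving out 1 library, fits that called between 11.1% and 33% of all rows. The activating factors E2F1 and E2F2 fell, from 37.8 ± 4.50 to 24.5 ± 1.56 CPM (log2 fold change -0.63, adjusted p = 0.000802) and from 3.45 ± 0.267 to 1.97 ± 0.236 CPM (-0.80, adjusted p = 0.00232). E2F7, an atypical family member that represses E2F targets, rose from 39.2 ± 4.53 to 58.5 ± 10.2 CPM (0.58, adjusted p = 0.0108). TFDP1, the binding partner of the E2F proteins, was called lower (-0.24, adjusted p = 0.0422), and kept the call in 2 of the 10 fits that left out 1 library. Of 15 proliferation genes 6 fell and none rose (40% called beside 15.4% of all rows, median -0.10). With 1 surrogate variable 6 were lower and 3 higher, in a fit that called 33% of all rows. The 6 that fell in the reported fit are MCM2 to MCM7, the subunits of the helicase that opens DNA for replication. MCM6 had the smallest adjusted p of the list, with 76.6 ± 3.64 CPM in MG and 48.1 ± 2.96 in HG (log2 fold change -0.67, adjusted p = 6.97e-05), ahead of MCM3 (-0.48), MCM5 (-0.56) and MCM4 (-0.34). In all 6 MCM genes the groups did not overlap, as was the case for 13.6% of all rows (6.91% lower in HG). The other 9 genes of that list, PCNA, MKI67, TOP2A, CCNA2, CCNB1, CDK1, BUB1, AURKB and PLK1, had log2 fold changes between -0.12 and 0.20 and adjusted p-values between 0.0780 and 0.721. PCNA, the clamp of the replicating polymerase, had the smallest of these (0.15, adjusted p = 0.0780).

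**Figure D5:**
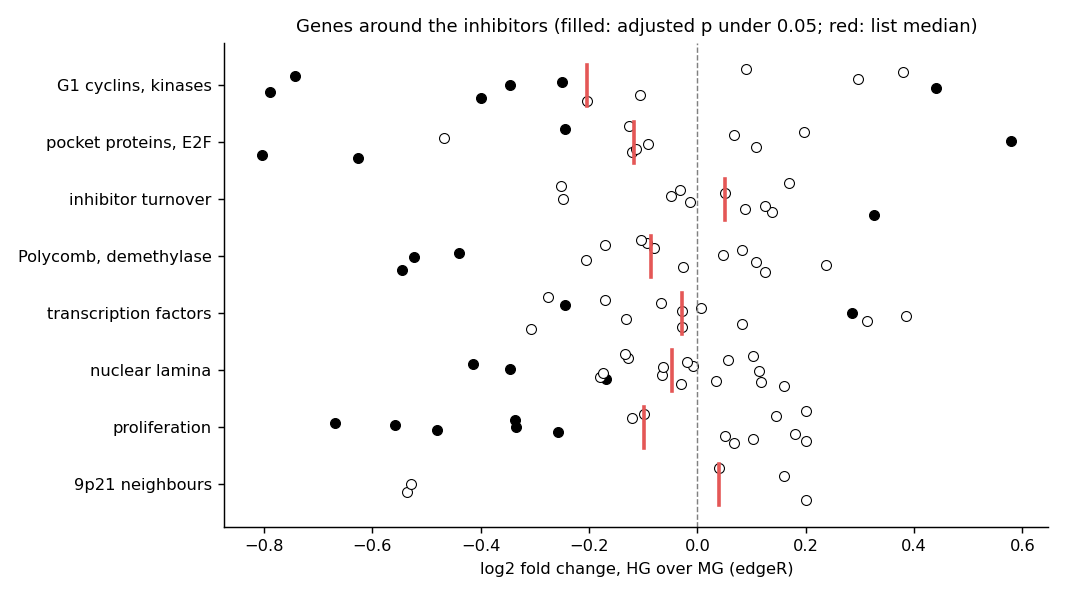
Log2 fold change of HG over MG (edgeR) for the 99 tested genes of 8 lists, with filled points for an adjusted p under 0.05 and a red line at the list's median; points are spread vertically for legibility. Filled points lie mostly left of 0 among the G1 cyclins and kinases and the proliferation genes, and there are none among the neighbours of CDKN2A and CDKN2B.

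Of 13 factors that act on the inhibitor genes, 1 rose and 1 fell (median -0.03), a share of 15.4% that equals that of all rows. Between 2 and 6 were called in the 12 alternatives other than leaving out 1 library, fits that called between 11.1% and 33% of all rows. MDM2, a ubiquitin ligase, rose from 242.1 ± 12.8 to 295.2 ± 17.2 CPM (log2 fold change 0.29, adjusted p = 0.00459), and its groups did not overlap. SMAD3, which carries the TGF-beta signal to CDKN2B, fell from 208.3 ± 7.48 to 175.9 ± 4.77 CPM (-0.24, adjusted p = 0.00206). Of 14 genes for Polycomb proteins, which silence the CDKN2A and CDKN2B locus, and their counterpart KDM6B, 3 fell and none rose (21.4% called beside 15.4% of all rows, median -0.09). Those that fell were the methyltransferase EZH2 (34.2 ± 2.31 to 23.8 ± 1.16 CPM, -0.52, adjusted p = 0.000351), CBX2 (-0.54, adjusted p = 0.00681) and the demethylase KDM6B (-0.44, adjusted p = 0.000844). With 1 surrogate variable, a fit that called 33% of all rows, 4 of the 14 were lower and 1 higher. EZH2 and KDM6B act on the same histone mark in opposite directions. Of 11 genes for ubiquitin ligases of the inhibitors, CKS1B, the cofactor that presents p27 for breakdown, rose (35.1 ± 2.84 to 44.0 ± 2.69 CPM, 0.33, adjusted p = 0.00790) and none fell (median 0.05), a share of 9.09% beside 15.4% of all rows. Between 1 and 6 of these 11 genes were called in the same 12 alternatives. With 1 surrogate variable, where 33% of all rows were called, 4 were higher and 1 lower.

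Of 18 genes of the nuclear lamina and of lamin maturation, 3 fell and none rose (median -0.05), a share of 16.7% that is close to the 15.4% of all rows. In the 12 alternatives other than leaving out 1 library, which called between 11.1% and 33% of all rows, between 2 and 6 were called. With 1 surrogate variable, the fit with 33%, 3 were higher and 3 lower. LMNB2, the other B-type lamin, went from 169.1 ± 6.65 to 133.0 ± 6.92 CPM (log2 fold change -0.35, adjusted p = 0.000902) and its groups did not overlap. SUN2, which links the lamina to the cytoskeleton, fell (-0.41, adjusted p = 0.00161), and ICMT, which methylates the end of lamin precursors, was called lower (-0.17, adjusted p = 0.0332), and kept the call in 3 of the 10 fits that left out 1 library. LMNA, the gene of the A-type lamins, did not pass (0.11, adjusted p = 0.448).

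None of the 5 genes that neighbour CDKN2A and CDKN2B was called by edgeR's quasi-likelihood test with all libraries, while 2 had an unadjusted p under 0.05. DESeq2 called 2 (1 higher, 1 lower) and 20.9% of all rows, edgeR without HG_1 and MG_2 called 2 and 27.1% of all rows, and with 1 surrogate variable 4 were called (3 higher, 1 lower) and 33% of all rows, so the count rests on the fit. For MTAP, the nearest of them and a gene of methionine salvage, the log2 fold change was 0.04 (adjusted p = 0.807). DMRTA1 had 0.20 (adjusted p = 0.0782), KLHL9 0.16 (adjusted p = 0.402, with a log2 fold change of 0.0873 without MG_2 and 0.248 without HG_1, and called in 3 of the 12 other alternatives), ELAVL2 -0.54 (adjusted p = 0.225) and IFNE -0.53 (adjusted p = 0.0817). In alternatives of the same kind IFNE was called in 3 of 12, DMRTA1 in 2 of 12, MTAP in 1 of 12 and ELAVL2 in 1 of 11. For IFNE all HG libraries lay below all MG libraries (exact permutation p = 0.00794), as was the case for 6.91% of all rows. Whether the change of CDKN2B differs from that of its neighbours was not tested.

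Over the 10 libraries and 13537 other genes of at least 1 CPM, the log2 CPM of HMGA1, CYSTM1 and SHMT2 were most like that of CDKN1A (Pearson r = 0.993 for each). Most like CDKN2B were NFE2L3 (r = 0.984), FGFR1OP2 (r = 0.983) and LRRC1 (r = 0.968). These values describe 10 libraries that share their 2 groups and their GC trend. With the group means taken out, r was between 0.962 and 0.972 for the former 3 genes and between 0.913 and 0.971 for the latter. The genes were chosen by their r over the same libraries, so these values are no separate check. The GC trend of HG_1 and MG_2 also remains in them.

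The label of an RPE line was checked with 11 RPE markers. RLBP1, MITF, OTX2, PMEL, KRT8 and KRT18 were detected, and SERPINF1 was between 0.442 and 1.04 CPM. BEST1, a chloride channel gene, was between 0.577 and 551 CPM in MG (median 5.26) and between 0.981 and 7.79 in HG (median 5.81), and did not pass (-4.97, adjusted p = 0.0670). Its mean in MG rests on MG_1 and MG_4, which stand far above the other 3 MG libraries. TTR was at 0 in all 10 libraries, RPE65 was at 0 in all HG libraries and at most 0.135 CPM in MG, and TYR was at most 0.818 CPM. Of the 8 tested, none rose and 3 fell, KRT8 (-0.62), KRT18 (-0.68) and PMEL (-0.72), a share of 37.5% beside 15.4% of all rows (7.8% lower). The summed FPKM of the list was between 1543 and 1921 in MG and between 987 and 1294 in HG. Most of that sum is KRT8 (mean 954 FPKM in MG, 611 in HG) and KRT18 (690 in MG, 432 in HG). Among 5 fibroblast markers COL1A1 (-1.33) and PDGFRB (-0.78) fell, with a summed FPKM of 34.4 to 43.7 in MG and 17.7 to 21.1 in HG, and COL1A2, COL3A1 and DCN were at or near 0. The defining markers CDH5 and CD3E, of endothelium and of T cells, were at 0 in all libraries, while VWF, also of endothelium, was between 0.264 and 0.538 CPM in MG and at most 0.513 in HG. PTPRC of white blood cells was at most 0.0898 CPM and PECAM1 at most 0.122, while CD68, a lysosomal protein that is not limited to macrophages, rose from 70.3 ± 10.5 to 114.2 ± 17.0 CPM (0.70, adjusted p = 0.00311). Some of these markers move with the groups, and their part in the values of the 9 genes was not tested.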

How the data were processed

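RNA of ARPE-19 cells (5 MG and 5 HG samples) was measured by RNA sequencing. The authors deposited read counts per gene, whole numbers without normalization, and FPKM values of the same libraries, divided by the authors by transcript length and library size. The submitters' processing notes name fastp 0.20.1, HISAT2 2.2.1 and GRCh38, and the counting program, its strand setting and the annotation are not given in the sources used here. No per-sample column was left unused.

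The 9 genes, the lists and the tests were chosen with earlier results of these data known. Counts were compared with edgeR 4.0.16 in R 4.3.3 (default filter, TMM, quasi-likelihood test, Benjamini-Hochberg adjustment over all 14936 rows, prior count of 2 for log2 CPM), and single genes with an exact two-sided permutation test of log2 CPM. Alternatives were the likelihood ratio test, DESeq2 1.42.0, scaling by library size alone or by RLE size factors, filters of at least 10 counts in every sample or none, limma 3.58.1 on log2(FPKM + 1), log2(FPKM + 0.1) and a mean FPKM of at least 1, 1 surrogate variable (sva 3.50.0), HG_1 and MG_2 omitted, each library omitted, and, added after seeing the data, removal of each library's lowess trend (span 0.3) on GC content and length. Fold changes from FPKM are on the log2(value + pseudocount) scale. Named were the 9 genes, up to 4 called genes of each list with the smallest adjusted p, all 5 neighbours of CDKN2A and CDKN2B, cell type markers, and for each called member the 3 genes of highest r. CCND3, CCNE2, MCM2, MCM7, LMNA, RCBTB2 and the 9 other proliferation genes were named after their values were seen. Positions and GC content come from GENCODE release 29 on GRCh38. A count of 0 allows up to 3 counts, or 0.0669 to 0.0912 CPM depending on the library, for counting error only. The steps were tested on simulated data. Some items counted in the totals are not reported here.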

Additional observations from a re-analysis of the deposited data

Results flagged for a closer look

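The CPM of the 9 genes and of 26 genes named from the lists, and the total counts, were examined for a library far from the others of its group, in 72 groups of 5. A gap of this size is found by chance in about 1 in 20 groups, or 3.6 of 72, and 4 were found. CDKN2B was at 117.3 CPM in MG_1, with the other MG libraries between 93.2 and 97.2. SMAD3 was at 184.1 CPM in HG_4, with the others between 171.8 and 175.3. KLHL9, a neighbour of CDKN2A, was at 45.3 CPM in MG_2 (others 59.4 to 61.7) and at 48.9 CPM in HG_1 (others 66.5 to 69.6), the libraries with the GC slope.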

How the results depend on the processing

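The count of called genes among the 8 tested, 2, became 5 with 1 surrogate variable and 5 with the GC and length trend removed, and was between 1 and 3 without 1 library, the lowest without HG_5. Among the 99 pathway genes the 25 calls became 49 with 1 surrogate variable (20 higher, 29 lower), 43 without HG_1 and MG_2 and 46 with the GC and length trend removed (15 higher, 31 lower), fits that called 33%, 27.1% and 29.5% of all rows beside 15.4%, and were between 23 and 33 without 1 library, the highest without HG_1. The fits without 1 library called between 10.9% and 19.9% of all rows. The cause of the shifts in these counts was not tested. The sign of the log2 fold change turned for 3 genes near 0. CDKN1B was at 0.00137 with limma on log2(FPKM + 1), with or without the limit on mean FPKM, at 0.00138 on log2(FPKM + 0.1), at 0.00863 without HG_1 and at 0.0108 without MG_1 (range without 1 library -0.0464 to 0.0108). RB1 was at 0.0262 with 1 surrogate variable and at 0.0749 without HG_1 (range -0.128 to 0.0749). MTAP was at -0.00277 with limma on log2(FPKM + 1), with or without the limit, at -0.00311 on log2(FPKM + 0.1) and at -0.0144 without MG_2 (range -0.0144 to 0.0934). Of the remaining values, which cover the 8 tested genes and 26 of the listed genes and not the other genes named, 685 kept direction and side of the threshold, 23 passed only in the alternative and 27 only in the reported fit. No paired analysis was possible because the labels number the MG samples and letter the HG samples, so that the number in an HG column's name is tied to no sample and nothing says that it marks a pair. Depth limits CDKN1C, with at most 6 counts.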
